A study of Mus musculus with 30 samples.

Results

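Neurod1 and Id2 belong to the helix-loop-helix transcription regulators. Basic helix-loop-helix factors pair through their helix-loop-helix region and bind the E-box, the DNA motif CANNTG, with a basic stretch. Neurod1 is such an activator. It pairs with ubiquitous E proteins, is made in neuroendocrine and pancreatic endocrine cells, and drives the Pomc promoter in corticotropes, the pituitary cells that make ACTH from the Pomc precursor. Id2 has the helix-loop-helix region but no basic stretch, so it ties up E proteins in pairs that cannot bind DNA.

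Both genes were read on spotted cDNA arrays hybridised with RNA of AtT-20 cells, a corticotrope cell line grown from a mouse pituitary tumour. Serum-deprived cells received 100 nM human/rat CRH, the hypothalamic hormone that stimulates corticotropes, for 1, 3, 6, 12 or 24 h, and untreated serum-deprived cells were harvested at the same times. Each time point had 6 arrays, 3 with the RNA of CRH-treated cells in Cy3 (replicates 1 to 3) and 3 with it in Cy5 (replicates 4 to 6). The 6 arrays share 1 pair of RNA extracts per time point. Their SD, and the p-values of the linear models over single arrays below, measure hybridisation and scanning and not the spread between cultures. The limma p-values below rest instead on the spread between time-point averages. That spread holds differences between times, cultures and days together. The 3 h and 6 h arrays were quantified on 1 day, the 1 h arrays on another, and the 12 h arrays on a day of their own except for 2 that share the day of the 24 h arrays. Between times that share no day, time and day cannot be told apart.

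The genes were represented by 4 of 22830 gene spots, and all 4 passed the intensity limit, an intensity above the lowest 10% of all spots, empty and control spots included, in both channels of all 30 arrays, as did 14375 spots in all. The Id2 study spot passed narrowly, with a lowest percentile of 11.8 among all spots (8.64 among gene spots alone) at 6 h on replicate 4. A spot of each gene, Neurod1 spot 6620 and Id2 spot 2656, appears in the study's supplementary list of transcripts that its selection runs picked, and is called its study spot. A high rank in any of the runs was enough for that list, and neither gene was among the study's candidate genes. Neurod1 spot 3014 and Id2 spot 15357 carry the same gene names in the scanner files and are called the second spots. The study spots were picked on their ratios on these arrays, and the second spots were read on the same arrays and RNA, so all ratios of the 4 spots are a description without a test. The clone behind each spot is known by gene name only, and which part of the transcript it covers was not read. The corticotrope markers Pomc, Pitx1 and Scg2 had median percentile ranks of 95.0, 98.4 and 94.2 among gene spots in untreated RNA, and Tbx19 had 39.3. Of the same list, Chga (17.7) and the second spot of Scg2 (21.5) did not pass the intensity limit. Of the markers of cells that the line should lack, 4 of 6 leukocyte genes and 5 of 7 fibroblast genes also passed the intensity limit, with median ranks up to 89.0 (Cd3e) and 51.3 (Col3a1), so a pass on these arrays does not by itself show a transcript.

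Neurod1 lies on mouse chromosome 2 from 79452637 to 79456636 and Id2 on chromosome 12 from 25093799 to 25096092, both on the minus strand of GRCm38.p6. The 250 bases before each transcription start in RefSeq are shown because E-boxes are what both proteins act through and the CRE, TGACGTCA, is the site of the cAMP-responsive factors downstream of the CRH receptor. The windows are chr2:79456637-79456886 and chr12:25096093-25096342, printed 5′ to 3′ on the gene's strand with E-boxes in capitals.
Neurod1 promoter: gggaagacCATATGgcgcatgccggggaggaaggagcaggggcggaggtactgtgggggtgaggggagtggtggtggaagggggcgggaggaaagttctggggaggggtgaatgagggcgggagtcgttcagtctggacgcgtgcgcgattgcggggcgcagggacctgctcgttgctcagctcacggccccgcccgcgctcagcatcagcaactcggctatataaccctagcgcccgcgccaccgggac
Id2 promoter: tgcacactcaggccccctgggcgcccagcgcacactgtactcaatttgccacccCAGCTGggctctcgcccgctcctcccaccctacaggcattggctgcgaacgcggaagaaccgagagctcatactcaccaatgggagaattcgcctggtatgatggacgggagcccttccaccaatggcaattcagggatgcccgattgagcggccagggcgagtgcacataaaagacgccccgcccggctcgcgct
Each window held 1 E-box. That of Neurod1 read CATATG and began 242 bases before the start, and that of Id2 read CAGCTG and began 196 bases before it. Of 32841 RefSeq promoter windows of this length, 66.2% held an E-box on either strand, 3.47% a CATATG and 13% a CAGCTG. Neither window held the full CRE TGACGTCA, found in 1.55% of windows, or its half-site TGACG, found in 17.8%, on either strand. A match is a run of letters and not a bound site.

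The Neurod1 study spot was lower in CRH-treated than in untreated RNA from 3 h on. Values are ratios of CRH-treated to untreated RNA on the log2 scale after print-tip loess, and a negative value means a lower signal with CRH. At 24 h the lowest, median and highest of 6 arrays were -1.02, -0.58 and -0.35, with a mean of -0.61 ± 0.26 (SD, n = 6), or 1.53-fold lower. At 3 h they were -0.87, -0.58 and -0.12, with a mean of -0.54 ± 0.32, or 1.45-fold lower. The spot lay below 0 on all 6 arrays at both times, as did 2.33% of all measured spots at 3 h and 1.95% at 24 h.

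At 12 h the Neurod1 study spot had its narrowest spread, from -0.56 to -0.31 around a mean of -0.43 ± 0.09, and 1.96% of spots were likewise below 0 on all 6 arrays. At 6 h its mean was only -0.19 ± 0.27. There 5 arrays lay between -0.38 and -0.17 and replicate 4 stood apart at 0.34, and without that array the mean was -0.30. At 1 h the arrays split by dye. With the treated RNA in Cy3 the 3 arrays averaged -0.29 and with it in Cy5 they averaged 0.72, so the mean of 0.21 ± 0.59 has no settled direction.

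A size rule asks for a mean of at least 1.5-fold and for 6 arrays on the same side of 0. The study spot met it at 24 h, where 0.0487% of all measured spots met it downwards, and the second spot met it at 3 h, where 0.0139% did. Both calls sat close to the limit: the first was lost without replicate 1 (mean -0.58), without replicate 2 (-0.53) and with 1 loess curve per array (-0.58), and the second without replicate 6 (-0.58). At 3, 12 and 24 h together, 5 of 14375 spots, or 0.0348%, lay below 0 on all 18 arrays, and the Neurod1 study spot is 1 of them. At 24 h 0.0417% of spots had a lower mean than it did. Nothing is read from these shares, since the study spot was picked for its ratios.

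The second Neurod1 spot gave nearly the same means through very different arrays. At 1, 3, 6, 12 and 24 h its means were 0.27 ± 0.78, -0.73 ± 0.55, -0.47 ± 0.88, -0.51 ± 0.94 and -0.57 ± 0.52 (SD, n = 6). The large SD came from the dyes. At 12 h the Cy3 arrays averaged 0.35 with an SD of 0.1 and the Cy5 arrays -1.36 with an SD of 0.19, and no value of either set overlapped the other at any time point. Over all 30 arrays the Cy3 orientation lay 1.30 above the Cy5 orientation, a difference whose size was exceeded by 0.87% of spots. The study spot leaned the opposite way, with a difference of -0.43, and 32.4% of spots had a larger one in size.

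Read within an orientation, the second Neurod1 spot still had its highest mean at 1 h. In Cy3 its means were 0.96, -0.27, 0.31, 0.35 and -0.10 at 1, 3, 6, 12 and 24 h, and in Cy5 they were -0.42, -1.19, -1.25, -1.36 and -1.04. Only at 3 and 24 h did both orientations lie below 0, which are also the times at which all 6 arrays did. The study spot was below 0 in both orientations at 3, 6, 12 and 24 h. Thus at 6 and 12 h the direction of the second spot depended on the dye, while that of the study spot did not.

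**Figure D1:**
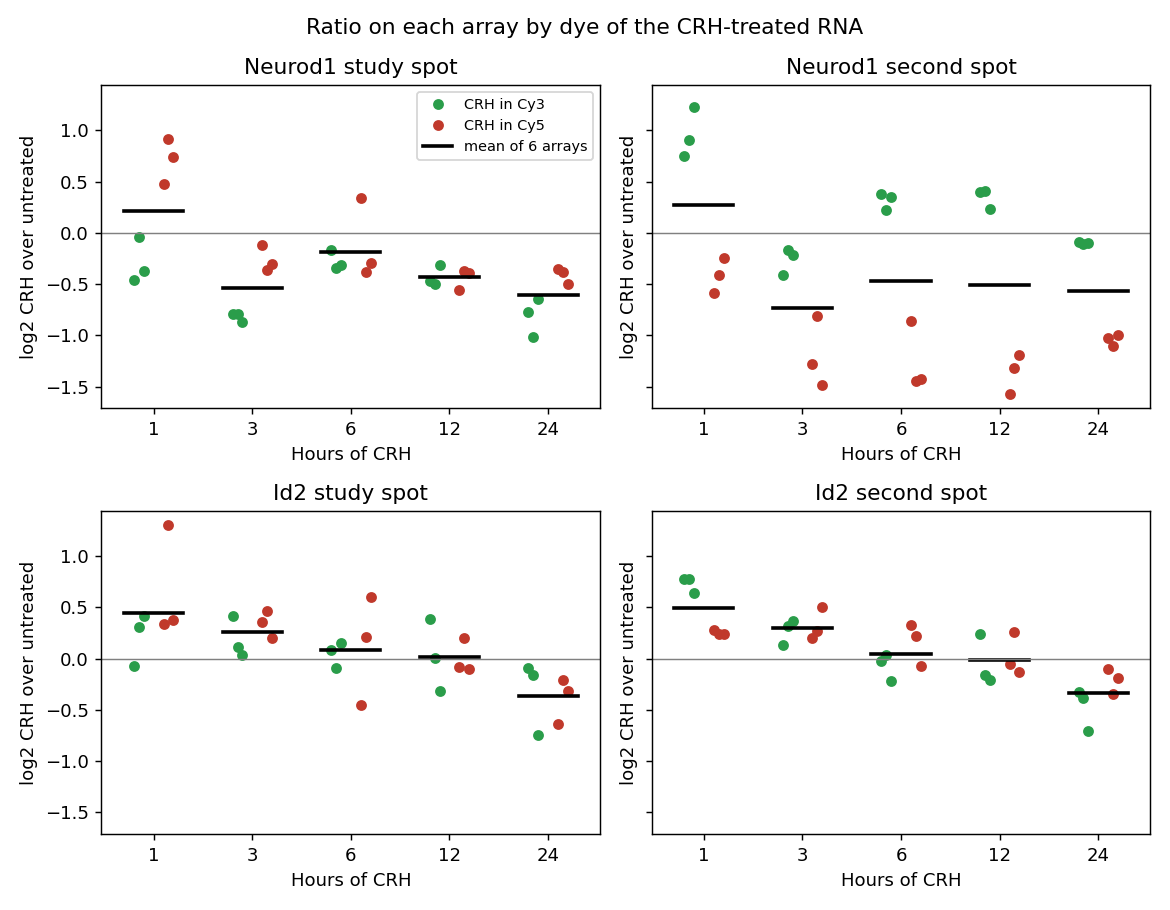
Log2 ratio, CRH-treated to untreated, (vertical axis) of 30 single arrays by hours of CRH (horizontal axis, evenly spaced) for the 4 spots. Green points have the CRH-treated RNA in Cy3, red points have it in Cy5, and black bars are means of 6 arrays. The second Neurod1 spot separates by dye at every time point, while the second Id2 spot lies above 0 on 6 of 6 arrays at 1 and 3 h and below 0 on 6 of 6 at 24 h.

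The Id2 ratios lay above 0 early and below 0 at 24 h. The means of the Id2 study spot over the 5 times, from the earliest to the latest, were 0.45 ± 0.45, 0.26 ± 0.17, 0.08 ± 0.35, 0.02 ± 0.25 and -0.36 ± 0.27 (SD, n = 6). In folds this is 1.36-fold higher at 1 h and 1.29-fold lower at 24 h. At 3 h its lowest, median and highest arrays were 0.04, 0.28 and 0.46, all above 0. At 24 h they were -0.75, -0.27 and -0.09, all below 0.

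At 1 h the Id2 study spot was above 0 on 5 of 6 arrays. Its values ran from -0.07 over a median of 0.36 to 1.30 on replicate 5, and without that replicate the mean was 0.28. At 6 h it was above 0 on 4 arrays and at 12 h on 3, with means smaller than their SD. No mean of either Id2 spot reached 1.5-fold.

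The second Id2 spot gave the same course with a smaller spread. Its means were 0.49 ± 0.27, 0.30 ± 0.13, 0.05 ± 0.20, -0.01 ± 0.21 and -0.34 ± 0.21 at 1, 3, 6, 12 and 24 h. At 1 h its lowest, median and highest arrays were 0.24, 0.46 and 0.78. At 3 h they were 0.13, 0.30 and 0.50, and at 24 h -0.71, -0.34 and -0.10. It was above 0 on all 6 arrays at 1 and at 3 h and below 0 on all 6 at 24 h, and it was the 1 spot of 14375, or 0.00696%, with that pattern. Of all measured spots, 2.85% lay above 0 on all 6 arrays at 1 h, 4.63% at 3 h, and 1.95% below 0 on all 6 at 24 h. Both Id2 spots were among the 11 spots, 0.0765%, that were above 0 on every array at 3 h and below it on every array at 24 h. As for Neurod1, nothing is read from these shares, since Id2 was picked for its ratios on these arrays.

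Dye mattered less for Id2 than for Neurod1. Over 30 arrays the Cy3 minus Cy5 difference was -0.12 for the study spot and -0.03 for the second spot, while its median size over all spots was 0.292. On the second spot the small value came from differences that cancelled. Its Cy3 orientation lay higher at 1 h and lower at 3, 6, 12 and 24 h. The orientations lay furthest apart at 1 h, in opposite directions on the 2 spots. The second spot then averaged 0.73 in Cy3 and 0.25 in Cy5, and the study spot 0.22 and 0.67, all above 0. At 24 h the orientations gave -0.33 and -0.39 on the study spot and -0.47 and -0.21 on the second.

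The pair of Id2 spots differed by at most 0.05 in any of the 5 means and by 0.0316 on average. The file holds 806 gene names with exactly 2 measured spots, and none had a smaller average difference than Id2, against a median of 0.155. This closeness rests in part on replicate 5 at 1 h. Without that replicate the 1 h means were 0.28 on the Id2 study spot and 0.54 on the second. The Neurod1 pair differed by 0.128 on average and by at most 0.28, at 6 h, and 33.9% of the pairs differed by less. All 5 means of the Neurod1 pair shared their sign, and for Id2 the sign differed only at 12 h, where the means were 0.02 and -0.01. The spots of a pair share RNA and arrays but not position: the Neurod1 spots lie in print blocks 14 and 6 and the Id2 spots in blocks 6 and 31 of 48.

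**Figure D2:**
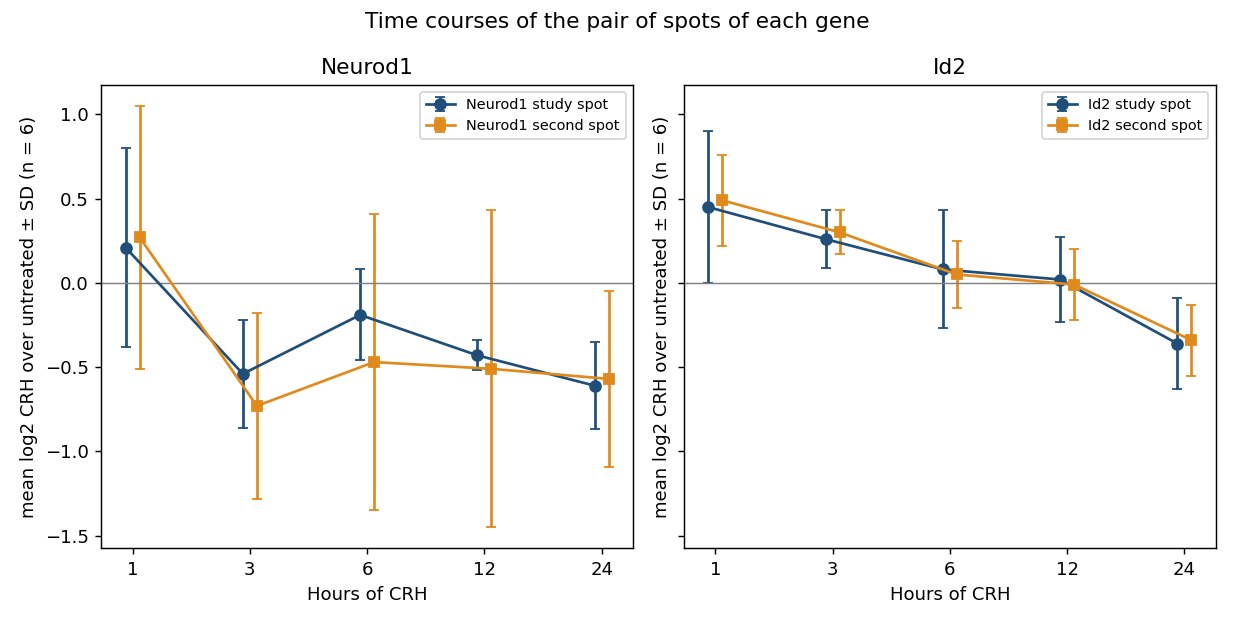
Mean log2 ratio (CRH-treated to untreated) with the SD over 6 arrays (vertical axis) against hours of CRH (horizontal axis, evenly spaced), with the study spot in blue and the second spot in orange. The Id2 spots lie within 0.05 of each other at every time, and both Neurod1 spots lie lower at 3 h than at 1 h.

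The largest step down was early for Neurod1, between 1 h and 3 h, and late for Id2, between 12 h and 24 h. At the early step the mean of the Neurod1 study spot went from 0.21 to -0.54, and that of its second spot from 0.27 to -0.73. Over the same step the Id2 spots went from 0.45 to 0.26 and from 0.49 to 0.30. At the late step the Id2 spots went from 0.02 to -0.36 and from -0.01 to -0.34, while the Neurod1 spots went from -0.43 to -0.61 and from -0.51 to -0.57. From 1 h to 24 h all 4 spots ended lower by a similar amount, 0.82 and 0.84 for Neurod1 and 0.81 and 0.84 for Id2, which 99.8% to 99.9% of spots did not reach. Nothing is read from these shares either, since both genes were picked for their ratios on these arrays.

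These steps cross days of quantification, except from 3 h to 6 h. Within that day the 6 h minus 3 h differences of the means were 0.35 and 0.26 for the Neurod1 spots and -0.18 and -0.25 for the Id2 spots. The 2 arrays at 12 h that share the day of the 24 h arrays have CRH-treated RNA in Cy5. On them the Id2 spots averaged 0.05 and 0.07, against -0.39 and -0.21 on the 3 arrays at 24 h in the same orientation. The same comparison for the Neurod1 spots gave -0.38 against -0.41 and -1.25 against -1.04. Within this day, then, the mean Id2 ratios were lower at 24 h than at 12 h and the means of the Neurod1 study spot were nearly equal. Single arrays of the second Id2 spot overlapped, with -0.13 at 12 h on replicate 6 and -0.10 at 24 h on replicate 4.

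Levels in each RNA were taken from the same intensities after quantile normalization of mean intensity between arrays, and they are given per spot in log2 intensity. On the Neurod1 study spot the untreated level in order of time was 11.17 ± 0.40, 11.85 ± 0.36, 11.97 ± 0.61, 11.41 ± 0.65 and 11.71 ± 0.29 (SD, n = 6). The level in CRH-treated RNA was 11.38 ± 0.33, 11.31 ± 0.18, 11.78 ± 0.40, 10.98 ± 0.60 and 11.10 ± 0.23. From 1 h to 3 h the untreated level differed by more than its SD and the level in CRH-treated RNA by less. The levels in CRH-treated RNA then differed by more than their SD from 3 h to 6 h and from 6 h to 12 h, while the later untreated levels did not differ from their neighbours by more than the larger SD.

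On the Id2 study spot the untreated level was 10.02 ± 0.32, 9.99 ± 0.54, 9.67 ± 0.56, 9.98 ± 0.68 and 10.53 ± 0.41 at 1, 3, 6, 12 and 24 h. Its level in CRH-treated RNA was 10.47 ± 0.31, 10.25 ± 0.49, 9.75 ± 0.82, 10.00 ± 0.72 and 10.16 ± 0.32. On the second Id2 spot both mean levels were lower at each later time, the untreated one from 12.94 ± 0.22 to 11.62 ± 0.59 and the CRH-treated one from 13.44 ± 0.09 to 11.27 ± 0.61. Its mean percentile rank among gene spots was 94.2 at 1 h and 80.7 at 24 h in untreated RNA. The pair of Id2 spots thus agreed within 0.05 on the ratio, while their untreated levels differed in opposite directions, by 0.51 and -1.32 from 1 h to 24 h. The second Neurod1 spot was brighter at 24 h in both RNAs, from 12.96 ± 0.38 to 14.79 ± 0.29 untreated and from 13.23 ± 0.63 to 14.22 ± 0.35 with CRH. Its highest intensity was 58000, below the scanner limit of 65000, which no channel of the 4 spots reached. The part of the day of quantification in these levels was not tested, and no change of a level over time is read from them.

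**Figure D3:**
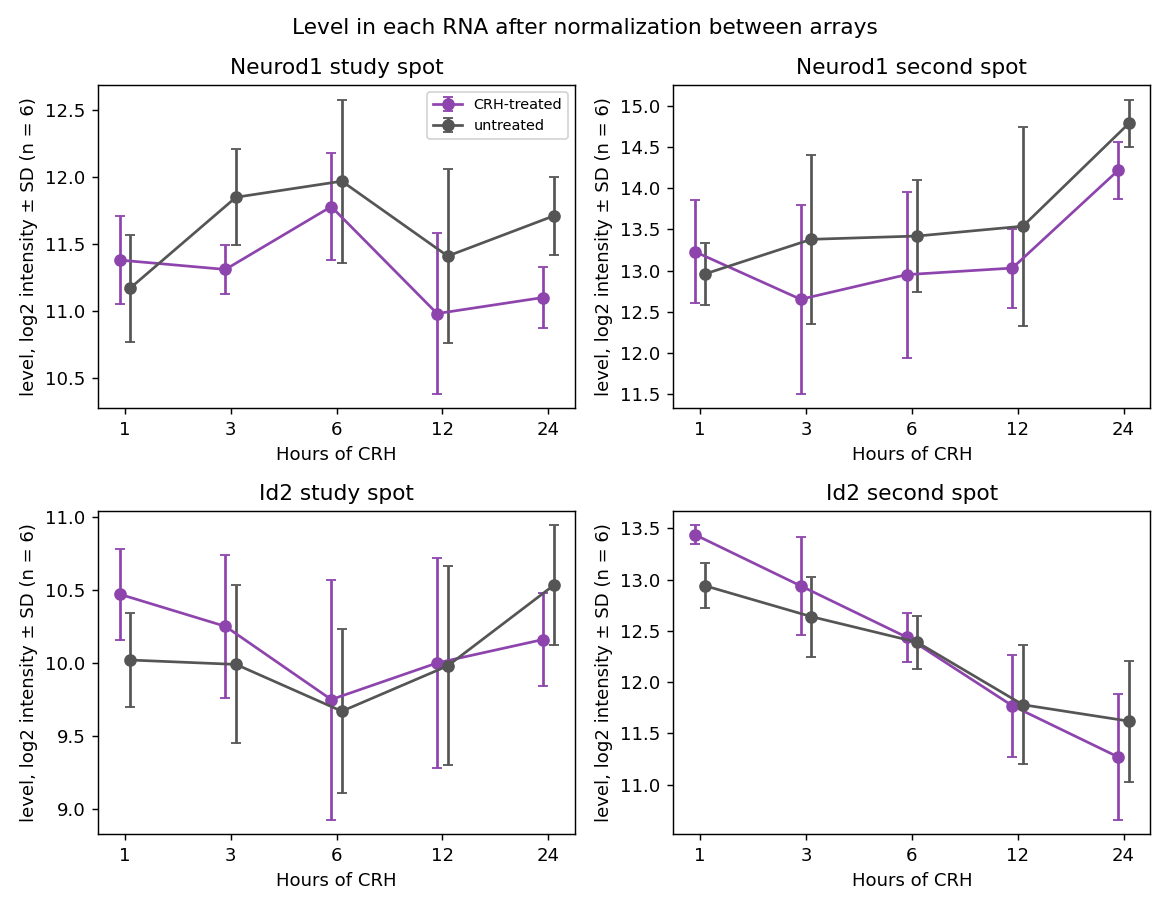
Level of each spot in log2 intensity with the SD over 6 arrays (vertical axes, each with its own range) in CRH-treated RNA (purple) and untreated RNA (grey) against hours of CRH (horizontal axis, evenly spaced). The second Id2 spot is dimmer at each later time in both RNAs while the Id2 study spot is not, although the gap between the RNAs is alike on both.

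The nearest neighbours of each study spot were named by Pearson r over the 30 arrays, after the mean of each dye orientation was subtracted per spot. The points share RNA extracts, arrays and days, so r describes these arrays and has no test. The second Neurod1 spot, with r = 0.754, ranked at place 2 among the 14374 other spots. Place 1 was ADP-ribosylation-like factor 6 interacting protein 6 with r = 0.824, whose means were 0.27, -0.22, -0.09, -0.12 and -0.36 at 1, 3, 6, 12 and 24 h. Kinesin family member 5B (0.728), nudix type motif 11 (0.724) and spot 18869 (0.722) followed. The scanner files name spot 18869 B-cell CLL/lymphoma 7C, while the study's supplementary list, whose clones were checked by sequencing in part, gives it as Fosl2, an AP-1 factor. It shared the step after 1 h but had means above 0 throughout, from 1.32 at 1 h to 0.22 at 24 h. The lowest r belonged to deleted in polyposis 1 (-0.840), amyloid beta precursor-like protein 1 (-0.751) and tubulin alpha 2 (-0.731). Deleted in polyposis 1 ran opposite to Neurod1, with means of -0.17 at 1 h, 0.47 at 3 h and 0.50 at 24 h.

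For the Id2 study spot the highest r were the same spot 18869, Fosl2 in the study's list (0.635), programmed cell death 2 (0.622), acid sphingomyelinase-like phosphodiesterase 3a (0.597), downstream of tyrosine kinase 2 (0.591) and transcription elongation factor A 2 (0.590). The lowest were kinesin family member 4 (-0.681), sialyltransferase 1 (-0.678) and tubulin alpha 4 (-0.671). The second Id2 spot ranked at place 110 with r = 0.486. Its time-point means nearly matched those of the study spot, so the gap lay within time points. At 1 h the dye orientations differed in opposite directions. The study spot averaged 0.22 in Cy3 and 0.67 in Cy5, and the second spot 0.73 and 0.25. The parts of the dyes and of the scatter of single arrays in the gap were not tested. Between the genes r was lower, at 0.435 for the study spots and 0.441 for the second spots.

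Calls among the partners and relatives of both factors are set beside the shares over all measured spots. Nothing is read from the number of calls. Of 108 listed helix-loop-helix genes other than Neurod1 and Id2, 58 were on the array and 36 were measured on 47 spots. The lists of corticotrope partners, Neurod1 target genes, BMP and Smad genes and Notch genes held 60 genes, 26 of them measured on 28 spots. No spot of either group met the size rule at any time. Over all measured spots 0.0974%, 0.146%, 0.0348%, 0.125% and 0.104% met it upwards and 0.0974%, 0.0139%, 0%, 0.0139% and 0.0487% downwards at 1, 3, 6, 12 and 24 h. Their medians stayed between -0.05 and 0.01 for the helix-loop-helix spots and between -0.06 and 0.00 for the others, beside medians from -0.02 to 0.00 over all measured spots.

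A CRH effect over the 5 time-point averages, tested with limma at an adjusted p under 0.05 over all spots, was called for 0 of these 75 spots, with adjusted p from 0.909 to 1. Over all spots 0.0487% were called higher and 0.00696% lower. At an unadjusted limma p under 0.05 there were 3 of 75, Myod1, Myc and Mycn, beside 5.38% of all spots.

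A change over time was tested by a linear model over 30 arrays with dye-swap as covariate, at p under 0.01, on spots without an interaction of time and dye-swap. It was called on 3 of 69 spots, beside 8.27% of all spots tested. After Benjamini-Hochberg adjustment over the 12249 spots tested, none of the 69 had an adjusted p under 0.05, beside 3.85% of all, and the lowest was 0.0623. An interaction, which kept a spot out of that test, was found on 6 of 75, beside 14.8%. The 3 spots with p under 0.01 were of Hes5, Mnt and Mxd1, of which Mxd1 lies outside the naming rule. Mxd1, Mycn and Neurod2 were named after their values were seen.

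The E proteins, which pair with Neurod1 and are held by Id2, stayed near 0. Tcf4 was measured on 3 spots with means from -0.21 to 0.11, and Tcf12 on 1 spot with means from 0.02 to 0.13 and an interaction with the dye. Tcf3, the third E protein, did not pass the intensity limit on every array. Among the other Id genes, Id1 had -0.08 ± 0.39, 0.19 ± 0.24, 0.12 ± 0.44, 0.18 ± 0.31 and -0.44 ± 0.50 at the 5 times (SD, n = 6). At 24 h it was above 0 on 1 of 6 arrays, and its change over time did not pass, with p = 0.033 and an adjusted p of 0.221 in the linear model (n = 30 arrays). The 3 measured Id4 spots had means from -0.21 to 0.21, and Id3 did not pass the intensity limit.

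Tissue-type basic helix-loop-helix factors, the class of Neurod1, had 10 spots with means from -0.31 to 0.22. Myod1, of muscle, had the lowest, at 3 h. Tcf15 went no further than -0.23 at 1 h. Neurod2, a close relative of Neurod1, did not pass the intensity limit on either of its spots.

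Hes repressors such as Hes5 act in Notch signalling against basic helix-loop-helix activators. A Hes5 spot had 0.27 ± 0.61, -0.42 ± 0.85, -0.01 ± 1.02, -0.18 ± 0.49 and -0.28 ± 0.72, with p = 0.00613 and an adjusted p of 0.0933 for time in the linear model (n = 30 arrays). The other Hes5 spot had 0.11, -0.16, -0.08, -0.02 and 0.17, with p = 0.22 (n = 30 arrays). Hes6 reached 0.41 ± 0.32 at 24 h, above 0 on 5 of 6 arrays, with p = 0.0377 and an adjusted p of 0.234 (n = 30 arrays). Bhlhe40, a clock repressor, had -0.36 at 3 h with an SD of 0.70 and an interaction with the dye.

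In the Myc and Max group, Mnt, a Max partner that represses Myc sites, had 0.44 ± 0.37 at 6 h and -0.26 ± 0.38 at 3 h, with p = 0.0029 and an adjusted p of 0.0623 for time (n = 30 arrays). A spot of Mxd1, another such repressor, had 0.28 ± 0.22 at 1 h and -0.30 ± 0.54 at 3 h with p = 0.00345 and an adjusted p of 0.069 (n = 30 arrays). Its 2 other spots had p = 0.749 and 0.654 (n = 30 arrays). Myc was below 0 on 6 of 6 arrays at 3 h, at -0.45 ± 0.33, with p = 0.22 for time (n = 30 arrays). Mxd3 reached 0.39 at 24 h. Mycn was above 0 on 6 of 6 arrays at 3 h, at 0.28 ± 0.16, and was left out of the test of time by its interaction.

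The leucine-zipper and PAS classes held 14 spots between them on 11 genes with no call. Among the leucine-zipper genes, Srebf1, a regulator of lipid synthesis, had its largest mean at 6 h, 0.28 ± 1.16, with 2 of 6 arrays above 0 and -0.17 without the highest array. Srebf2 had 0.17 at 6 h and at 24 h, and Tfe3 had -0.13 at 12 h. Among the PAS genes, the clock factor Bmal1 had 0.29 at 6 h. Of the coactivators, an Ncoa2 spot reached 0.35 at 3 h and an Ncoa1 spot -0.24 at 24 h. At these times the other measured spot of Ncoa2 had -0.08 and that of Ncoa1 had 0.23.

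**Figure D4:**
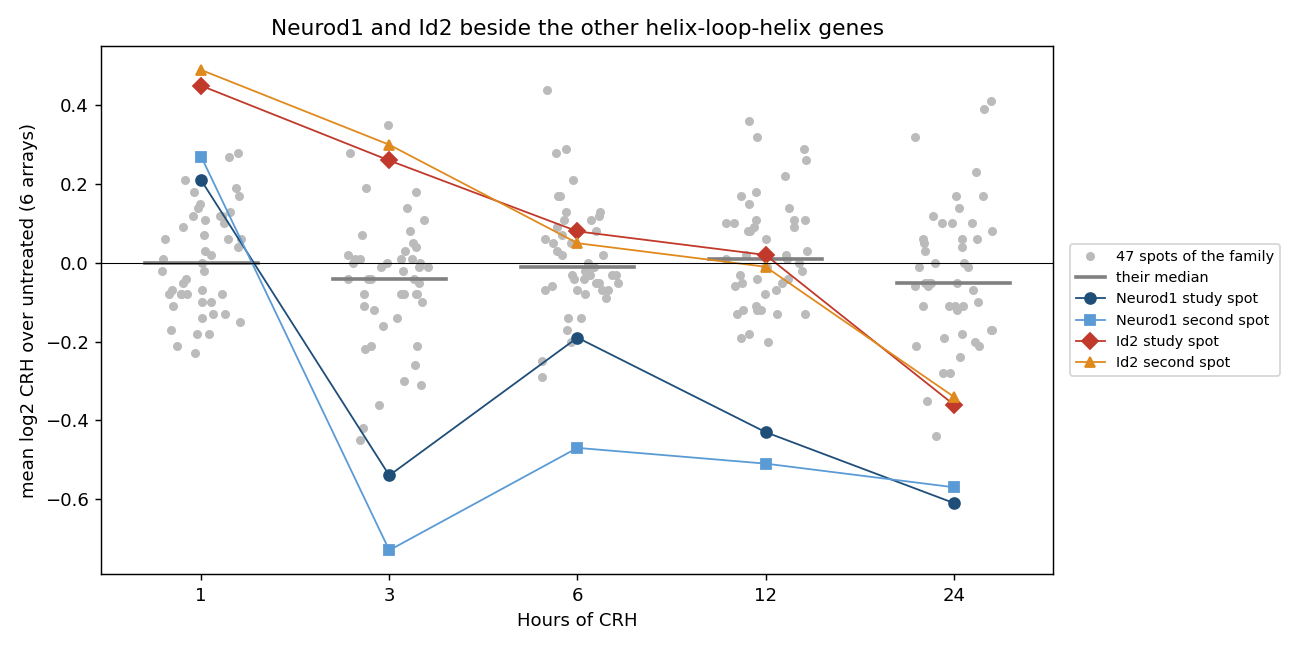
Mean log2 ratio (CRH-treated to untreated) over 6 arrays (vertical axis) against hours of CRH (horizontal axis, evenly spaced) for 47 spots of other helix-loop-helix genes (grey points, with their median as a grey bar) and the Neurod1 and Id2 spots (lines). The Neurod1 spots lie at the lower edge at 3, 12 and 24 h and the Id2 spots at the upper edge at 1 h. Nothing is read from these places, since both genes were picked for their ratios on these arrays.

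The list of corticotrope partners held factors that act with Neurod1 on the Pomc promoter or mark the corticotrope line. Of these, Pitx1 had 0.15, -0.36, -0.17, 0.10 and -0.22 with an interaction with the dye. Tbx19 had -0.44 ± 0.59 at 1 h and 0.17 ± 0.13 at 3 h, without a call. Nkx2-2 had 0.39 at 1 h, and Nr4a1, which CRH is known to induce, did not pass the intensity limit. Pomc itself, a target of Neurod1, had -0.18 ± 0.25, 0.39 ± 0.28, -0.03 ± 0.48, 0.17 ± 0.17 and 0.19 ± 0.21. It was above 0 on 6 of 6 arrays at 3 h, when both Neurod1 spots were below 0 on 6 of 6, and it was left out of the test of time by its interaction with the dye. Of the other target genes, Abcc8 had -0.38 at 12 h.

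BMP signals induce Id genes in many cells. The 8 measured BMP and Smad spots had means from -0.28 to 0.26, with Bmp6 at -0.28 at 3 h, the inhibitory Smad6 at -0.27 at 1 h and the BMP antagonist Chrd at -0.27 at 12 h. The 8 Notch spots ran from -0.25 to 0.25, with Lfng at -0.25 at 6 h and 0.25 at 12 h, a Numb spot at -0.25 and Notch1 at 0.22, both at 3 h. None of these was called.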

How the data were processed

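Scanner intensities of Cy3 and Cy5 were deposited per spot and array, without background subtraction or normalization, and the authors also deposited log2 ratios of 12593 spots, normalised by print-tip loess after removal of the lowest 10% of intensities. In 1 file channel 1 holds Cy5. Here the intensities of 22830 gene spots were used, after 1170 empty and 192 control spots were left out. Log2 ratios were corrected by loess in each of 48 blocks (span 0.75, 4 iterations) without background subtraction and turned to CRH-treated over untreated RNA. They correlated with the deposited ratios at r from 0.979 to 0.992 across 11341 shared spots. The median intensity of a channel lay between 481.8 and 2174.7. Precision is limited by how many arrays there are.

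Tests were limma on the 5 time averages with Benjamini-Hochberg adjustment and linear models over 30 arrays at p under 0.01. The script was tested on simulated ratios with known changes. Gene symbols of the lists were matched by hand from the gene names in the files, and promoters came from RefSeq (GRCm38.p6). Named were the 4 spots, the 5 highest and 3 lowest r of each study spot among spots with a gene name, list members past the limma test, the 3 genes with the largest mean in each list, and Pomc, Pitx1, Tbx19, Nr4a1, the E proteins and the Id genes. Some genes named by this rule are not reported here. The members, lists and tests were chosen with earlier results of these data known. Alternatives were other normalizations, limits on dim spots, single orientations, blocks, other folds and arrays left out. Tools were R 4.3.3, limma 3.58.1, Python 3.11.15, numpy 2.4.6, pandas 2.3.3 and matplotlib 3.10.9.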

Additional observations from a re-analysis of the deposited data

Results flagged for a closer look

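The ratios of Id2 changed sign between times. The Id2 study spot was above 0 on all 6 arrays at 3 h and below 0 on all 6 at 24 h, and its means lay 0.63 apart. The second Id2 spot did the same from 3 h to 24 h, with means 0.64 apart, and from 1 h to 24 h, with means 0.84 apart. These differences were not tested, since the gene was picked on these ratios, and 3 h and 24 h were quantified on different days.

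On 2 of the 20 groups of 6 arrays of the Neurod1 and Id2 spots the gap from the highest or lowest array to the next, as a share of the range, passed Dixon's critical value for 6 samples, for replicate 5 of the Id2 study spot at 1 h with 1.30 and replicate 4 of the Neurod1 study spot at 6 h with 0.34. On the same arrays the second Id2 spot had 0.24 and the second Neurod1 spot -0.86, its highest value of that orientation at 6 h. Among the named genes of the lists, single arrays passed it for Tcf12 at 6 h (-0.55), an Id4 spot at 6 h (-0.78), Srebf1 at 6 h (2.55), Hes6 at 12 h (-0.42), Bmal1 at 12 h (-0.80), Tbx19 at 12 h (0.85) and an Ncoa2 spot at 24 h (-0.43). In all, 9 of 215 groups were marked in this way, and Dixon's value is set so that chance marks about 1 in 20.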

How the results depend on the processing

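Under the 4 other normalizations (1 loess curve per array, median centring, normexp, deposited ratios) the means shifted by at most 0.05 for the Neurod1 study spot, 0.19 for its second spot, 0.18 for the Id2 study spot and 0.10 for the second, and a sign changed only for Id2 at 6 and 12 h, where no main mean exceeded 0.08 in size. With 1 orientation alone 6 of 40 means changed sign: the Neurod1 study spot at 1 h (-0.29 in Cy3), its second spot at 1 h (-0.42 in Cy5), 6 h (0.31 in Cy3) and 12 h (0.35 in Cy3), and the second Id2 spot at 6 h (-0.07 in Cy3) and 12 h (0.03 in Cy5). Without 1 replicate the widest range was that of the second Neurod1 spot at 12 h, from -0.69 to -0.29. The 2 size calls among the 4 spots, both of Neurod1, came to 2 or 3 without 1 replicate and to 0 at 2-fold, and which Neurod1 spot and time was called changed with the replicate left out. The Id2 study spot did not pass a limit at the lowest 20% of intensities. For the other helix-loop-helix and pathway genes, 1 size call appeared without removal of dim spots, against 0. Their 3 changes over time became 1 with removal of the lowest 20% and 1 with day of quantification as a block, and 2 with the replicate block in place of the dye-swap. Their 6 interactions became 12 with median centring and 11 without removal of dim spots. Over all spots, the 98 size calls became 155 with median centring, 307 without removal of dim spots, 3 at 2-fold and 124 to 157 without 1 replicate, with 154, 157 and 155 without replicates 4, 5 and 6. The 8 CRH effects became 39 without 1 h, 5 without 3 h, 5 without 6 h, 0 without 12 h, 5 without 24 h, 0 without removal of dim spots and 0 with a robust and trended prior. The 1013 changes over time became 462 with time in hours and 335 with the day as a block, and 915 with the replicate block. The 2126 interactions became 1088 with time in hours. The r of the spot pairs, 0.754 for Neurod1 and 0.486 for Id2 over 30 arrays, was 0.930 and 0.995 over the 5 averages. The cause of these shifts was not tested. After each time and orientation mean was subtracted, arrays of the same replicate number had r from -0.0252 to 0.0519 over 60 pairs. Arrays of other numbers in the same orientation had r from -0.0491 to 0.0526 over 120 pairs. Of 30 arrays, 7 correlated best with their own number. By this measure no pairing by replicate number was seen, which does not show how the arrays were prepared. Precision is limited by 6 technical arrays of 1 pair of extracts per time point.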
